A study of Mus musculus with 4 samples.

Results

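The cells described here were lymphoid-primed multipotent progenitors (LMPPs) from the bone marrow of wild-type C57Bl/6 mice aged 6 to 8 weeks, profiled on 2 of the 4 expression arrays of the series. The 2 arrays were chosen by their labelled genotype, and the other 2, from Lyl1-null mice, were not used. The cells were sorted as negative for mature lineage antigens, positive for Kit and Sca-1 and high for Flt3, and their RNA was extracted without culture, amplified and labelled with biotin. No treatment was given, and the labels do not say whether the arrays came from separate mice, how many mice were pooled or of which sex they were. The spread between the arrays may therefore be technical.

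LMPPs lie between the blood stem cell and the first lymphoid and myeloid progenitors. They keep the potential to form lymphocytes, granulocytes and macrophages, while their potential for platelets and red cells is reduced. Such progenitors are known for lineage priming, which is the low, joint expression of genes that later mark separate lineages.

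The values are log2 RMA expression values, so that 1 unit is a 2-fold difference. Each of 18193 genes was read from its probe set with the highest mean of the 2 arrays. As no detection calls were used, a background was set from 57 genes that are typical of other tissues, such as liver, muscle, eye and pancreas. The median of these reference genes was 4.58, and the 95th percentile of their means, 7.01, was taken as the background level. A gene is called above background where both arrays exceeded this level, split where 1 array did, and not above background otherwise. By that rule 8193 of 18193 genes, or 45.0%, were above background, 354 were split and 9646 were not above. The reference genes Afp, Krt10 and Prm1, of fetal liver, skin and sperm, lay above it themselves, with Afp at 8.32 and 8.04. A gene read between 7.01 and the highest reference mean of 8.18 was therefore no brighter than the brightest reference gene.

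A level compares the same gene between arrays well, but different genes only coarsely. Among 9010 genes with several probe sets, the median SD between the probe sets of 1 gene was 1.35, against 0.10 between the arrays. Of the 5514 such genes whose highest probe set had a mean over 7.01, 73.7% also had one with a mean that was not. Ikzf1 read 11.10 and 11.35 on 1 probe set and 5.60 and 5.43 on the other. Levels are therefore given as the position of a reading among all genes, in percentiles, and no order of abundance between genes is drawn from them. Readings from 10.59 upward made up the top 10% of genes.

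The 4 genes chosen to mark LMPPs were all above background, against 45.0% of all genes, and 3 of them lay in the top 10%. Dntt, the terminal deoxynucleotidyl transferase that adds bases to antigen receptor joints, read 14.17 and 14.21, a mean of 14.19 ± 0.03 (SD, n = 2) at the 99.8th percentile. Cd34, a sialomucin of blood progenitors, read 12.76 and 12.87. Flt3, the cytokine receptor on which the cells were sorted, read 11.92 and 12.12, or 12.02 ± 0.14 (SD, n = 2), at the 96.7th percentile. Kit, the stem cell factor receptor and also a sorting marker, read 10.07 and 10.27, at the 87.0th percentile. The arrays differed by at most 0.20 for these genes. Replicate 2 was the higher of the pair in all 4, as it was for 9201 of all 18193 genes. Flt3 and Cd34 had a single probe set, whereas Kit had a second one at 4.66 and 4.94, below background. The Dntt reading came from a probe set whose suffix marks possible hybridisation to other transcripts, and its other probe sets read 13.47 and 13.49, and 9.73 and 9.62.

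The promoters of the 4 markers are printed to show how different the start regions of genes with bright readings in 1 cell population were. The windows cover 250 bases before to 50 bases after the RefSeq start, 5′ to 3′ on the strand of the gene, in build GRCm38.p6, with each CpG in capitals. The Dntt window (chr19:41029025-41029324, plus strand) held 2 CpGs and the Cd34 window (chr1:194938571-194938870, plus strand) held 7. The Flt3 window (chr5:147400440-147400739, minus strand) held 18 and the Kit window (chr5:75574737-75575036, plus strand, the first of 2 listed) held 20.
Dntt: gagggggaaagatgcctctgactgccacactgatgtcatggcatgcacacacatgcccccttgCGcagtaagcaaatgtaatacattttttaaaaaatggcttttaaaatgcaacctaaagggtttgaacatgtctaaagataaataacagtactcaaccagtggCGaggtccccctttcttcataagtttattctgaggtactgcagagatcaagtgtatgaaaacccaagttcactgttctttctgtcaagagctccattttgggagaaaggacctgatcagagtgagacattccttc
Cd34: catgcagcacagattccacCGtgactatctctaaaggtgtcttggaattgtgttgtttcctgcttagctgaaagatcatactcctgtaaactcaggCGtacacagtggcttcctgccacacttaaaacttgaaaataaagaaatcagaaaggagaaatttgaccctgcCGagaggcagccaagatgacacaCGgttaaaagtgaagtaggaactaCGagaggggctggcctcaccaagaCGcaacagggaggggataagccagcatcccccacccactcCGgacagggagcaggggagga
Flt3: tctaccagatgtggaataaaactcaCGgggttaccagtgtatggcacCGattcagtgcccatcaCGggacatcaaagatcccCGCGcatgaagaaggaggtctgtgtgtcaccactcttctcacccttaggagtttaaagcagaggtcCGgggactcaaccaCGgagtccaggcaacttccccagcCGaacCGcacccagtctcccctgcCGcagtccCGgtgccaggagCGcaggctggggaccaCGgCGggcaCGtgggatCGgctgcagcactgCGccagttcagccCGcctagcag
Kit: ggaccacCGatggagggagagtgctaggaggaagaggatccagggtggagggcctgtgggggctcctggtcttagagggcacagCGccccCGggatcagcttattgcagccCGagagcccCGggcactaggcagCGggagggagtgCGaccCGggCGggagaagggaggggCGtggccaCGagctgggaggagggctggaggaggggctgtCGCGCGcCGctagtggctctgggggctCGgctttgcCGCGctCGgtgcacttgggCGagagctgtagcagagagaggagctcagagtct
The ratio of observed to expected CpGs, which is the CpG count times the window length over the product of the C and G counts, was 0.15 for Dntt, 0.37 for Cd34, 0.65 for Flt3 and 0.62 for Kit. Against a conventional CpG island limit of 0.6, the Flt3 and Kit windows were CpG-rich and those of Dntt and Cd34 were not. None of the 4 windows held the letters TATAAA on the strand of the gene between 40 and 15 bases before the start.

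**Figure D1:**
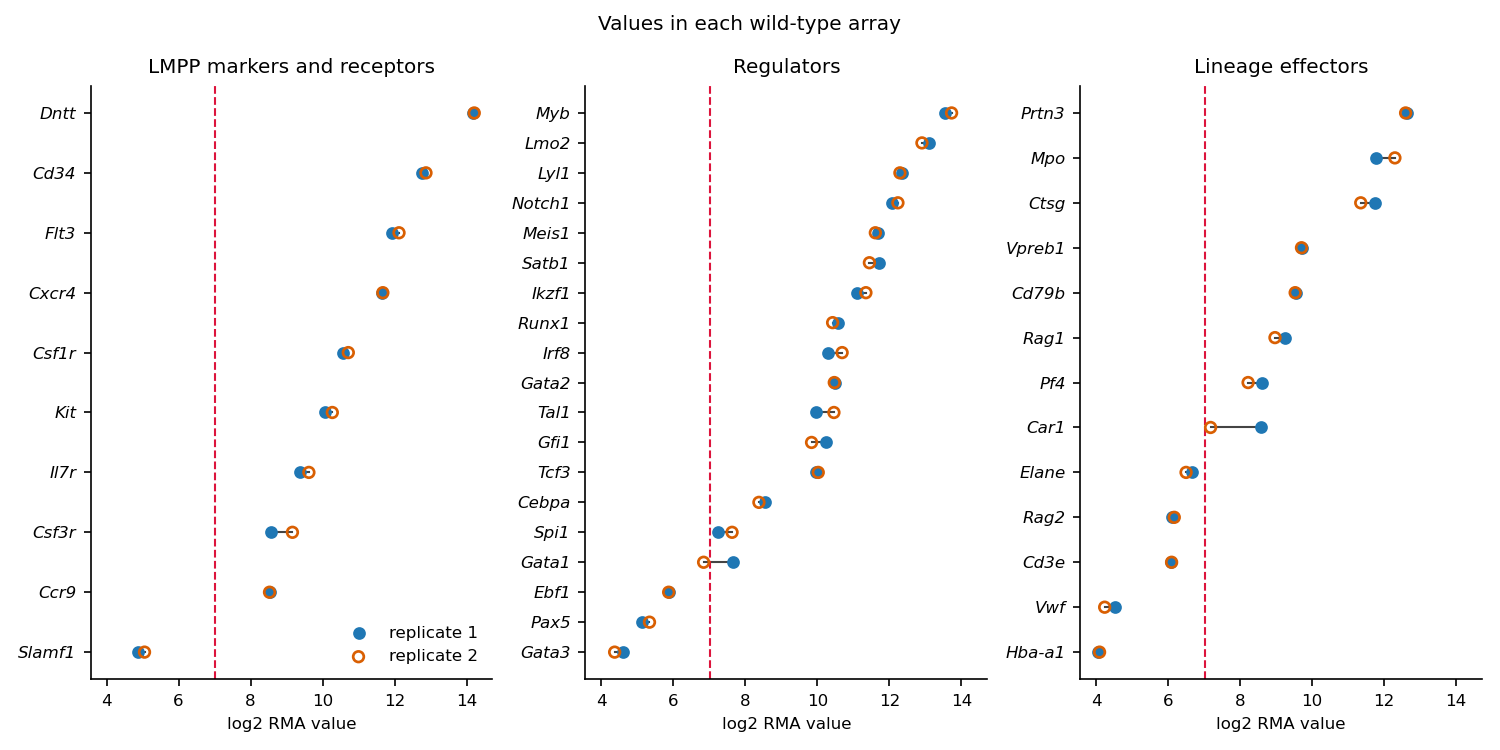
Log2 RMA value of selected genes in each of the 2 wild-type arrays (filled points for replicate 1, open points for replicate 2), in panels for LMPP markers and receptors, regulators and lineage effectors, with the background level of 7.01 as a dashed line. The arrays nearly coincide for most genes, as for Dntt at 14.17 and 14.21, while Car1 stands apart at 8.57 and 7.18 and Gata1 lies on both sides of the line at 7.66 and 6.84.

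Surface genes of the sorted phenotype were read next, and 7 of 8 were above background, against 45.0% of all genes. Ptprc, the pan-leukocyte phosphatase CD45, read 12.15 on both arrays, and Cd93, a receptor of early progenitors, read 10.63 and 10.52. Cd48, a SLAM-family protein that appears as multipotent progenitors leave the stem cell state, read 9.13 and 9.28, whereas Slamf1, the CD150 of long-term stem cells, read 4.86 and 5.05 and was the 1 member not above background. Cd27, a TNF receptor family member of early progenitors and lymphocytes, read 8.45 and 8.58. Of 10 antigens that mark mature lineages, 1 was above background, namely Il7r at 9.37 and 9.62. The T-cell antigens Cd4 (6.51 and 6.37), Cd3e (6.07 and 6.10), Cd8a (5.72 and 5.75) and Cd8b1 (3.38 and 3.63) and the myeloid integrin Itgam (3.56 and 3.45) were not, and the count was 4 at most over the settings. Ly6a, which encodes Sca-1, and Tcf7 were not analysed here, since both lacked a probe set of their own in the annotation.

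Of the 33 stem cell genes measured, 23 (69.7%) were above background, against 45.0% of all genes, and their median was 8.44 against 6.63. Hoxa9, a homeobox factor of blood progenitors, read 13.92 and 13.77 at the 99.6th percentile. Txnip, an inhibitor of thioredoxin, read 13.82 and 13.45, and Msi2, an RNA-binding protein of stem cells, read 13.07 and 12.93. Lmo2, the adaptor that bridges blood transcription factors, read 13.10 and 12.90. Among regulators of self-renewal, Hlf read 11.85 and 11.72, Meis1, a cofactor of Hox proteins, read 11.69 and 11.61, and Mecom read 8.86 and 8.56. Mecom rested on 1 of its 3 probe sets, and its mean over them was 5.28. Procr, the endothelial protein C receptor of stem cells, read 10.47 and 9.85, and was 0.61 lower in replicate 2.

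The lowest stem cell genes were Tek, the angiopoietin receptor, at 3.40 and 3.61, and Sox17, an endothelial and fetal stem cell factor, at 4.01 and 3.95. Vwf, the platelet adhesion protein that also marks platelet-biased stem cells, read 4.52 and 4.24. These 3 genes and Slamf1 lay in the lower 30% of all genes, on the same arrays on which Hlf and Meis1 lay in the top 10%.

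Few Hox genes were bright. Of 39 measured Hox, Meis and Pbx genes, 8 (20.5%) were above background, less than the 45.0% of all genes, and their median was 5.09. Besides Hoxa9 and Meis1, they included Hoxa7 at 10.66 and 10.21 and Pbx2, a partner of Hox proteins, at 9.84 and 9.46. The others, singled out after their values were seen, were Hoxa5 (9.42 and 9.68), Hoxb4 (8.35 and 8.13), Pbx3 (7.03 and 7.34) and Pbx4 (7.10 and 7.03). By the background of 7.01 none of the measured Hoxc and Hoxd genes was above it, and the lowest of the list were Hoxd10 (3.15 and 3.49) and Hoxd1 (3.10 and 3.01). The count of 8 ranged from 5 to 14 over the other settings tried.

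**Figure D2:**
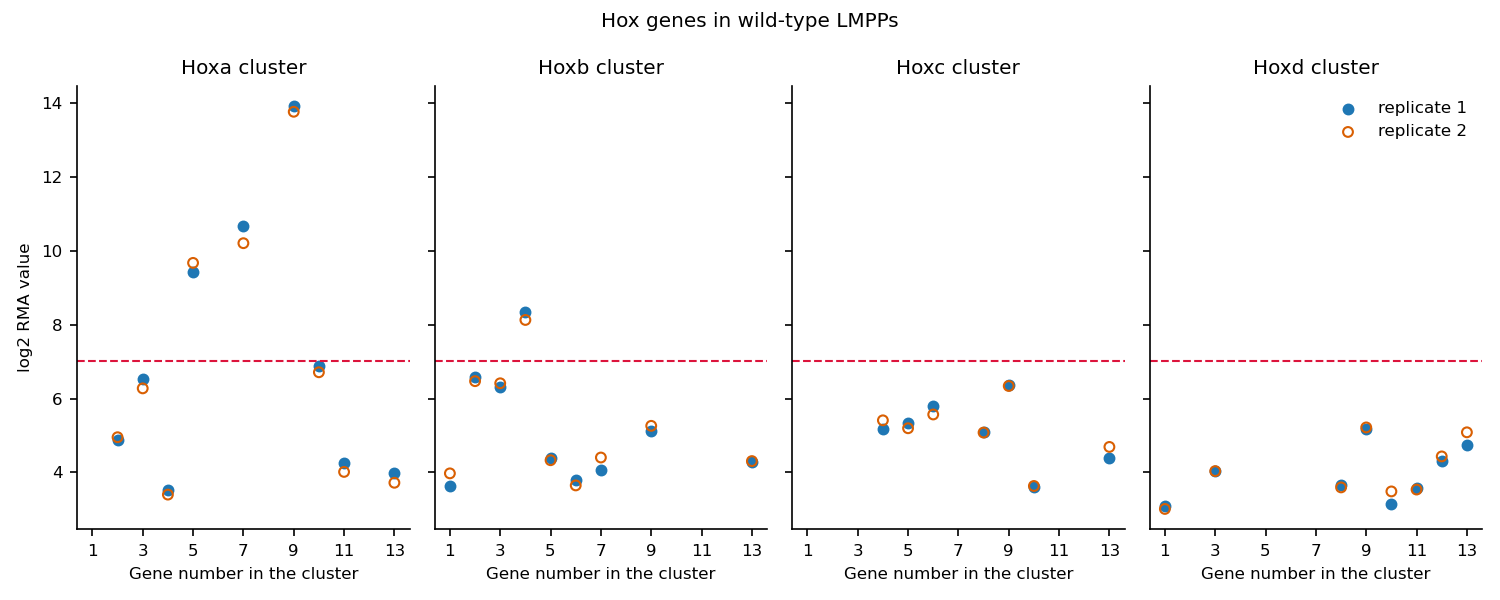
Log2 RMA value of each measured Hox gene in the 2 wild-type arrays, by its number within the Hoxa, Hoxb, Hoxc and Hoxd clusters, with the background level of 7.01 as a dashed line. Hoxa5, Hoxa7, Hoxa9 and Hoxb4 stand above the line on both arrays, and every Hoxc and Hoxd point lies below it.

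The factors of the SCL complex, which joins a bHLH factor, an E protein and the LMO and LDB1 adaptors on DNA, were bright. Of 14 bHLH, Id and LMO genes, 8 (57.1%) were above background, against 45.0% of all genes, at a median of 9.60. The list also holds Tal2 and the Id genes, so this count does not measure the complex itself. Lyl1, the factor deleted in the other arrays of the series, read 12.34 and 12.29, and its relative Tal1 read 9.97 and 10.46. The adaptor Ldb1 read 10.87 and 11.15. Tcf3, which encodes the E proteins E12 and E47, read 9.95 and 10.02 on the brightest of 3 probe sets. Tal2, a relative of Tal1, was not above background at 3.35 and 3.49. Nor was Id1, an inhibitor of E proteins, at 5.23 and 4.77, and the other 3 Id genes were not above it either.

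Among GATA, RUNX, ETS and Gfi factors, 15 of 19 (78.9%) were above background, against 45.0% of all genes, at a median of 9.82. Myb, a factor needed by nearly all blood progenitors, read 13.53 and 13.73 at the 99.4th percentile. The ETS factors Erg (11.44 and 11.37) and Elf1 (11.08 and 11.44) and the RUNX partner Cbfb (11.07 and 10.93) followed in the list. Runx1, the founding factor of adult blood, read 10.58 and 10.42 on the brightest of 6 probe sets, which ranged down to 5.79 in their mean. Gfi1, a repressor that acts in stem cells and granulocytes, read 10.24 and 9.84.

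Within the GATA family, Gata2, a stem and progenitor factor, read 10.48 and 10.47. Gata1, the master factor of red cells and platelets, was split, at 7.66 in replicate 1 and 6.84 in replicate 2. Gata3, the T-lineage factor, read 4.60 and 4.37, at the 21.8th percentile and not above background. Spi1, which encodes the myeloid and B-lineage factor PU.1, read only 7.22 and 7.63 on its 1 probe set. Its relative Spib was not above background, at 5.67 and 5.46.

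Lymphoid priming genes were a bright group, with 20 of 23 (87.0%) above background, against 45.0% of all genes. Their median was 9.99, at the 85.4th percentile. Beside Dntt, the forkhead factor Foxp1 read 12.33 and 12.34, the surface receptor Notch1 12.06 and 12.24, and the factor Sox4 11.83 and 12.07. Satb1, a chromatin organiser of lymphoid cells, read 11.72 and 11.44, Ikzf1, the Ikaros factor that opens lymphoid genes, read 11.10 and 11.35, and Irf8, a factor of B cells and monocytes, read 10.28 and 10.69. Mef2c, a lymphoid fate factor, was 0.74 lower in replicate 2, at 12.06 and 11.32.

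Among receptors and enzymes of the early lymphocyte, Il7r lay at the 80.8th percentile, Rag1 at the 76.6th, Ccr9 at the 70.4th and Rag2 at the 44.9th. Il7r, the receptor of the lymphoid growth factor interleukin-7, read 9.37 and 9.62. Rag1, one subunit of the recombinase that cuts antigen receptor genes, read 9.24 and 8.97, while its partner Rag2 read 6.12 and 6.17 and was not above background. Ccr9, a receptor for homing to the thymus, read 8.54 and 8.52 on a probe set with possible hybridisation to other transcripts. Ccr9 had 5 probe sets, and their mean of 6.19 and its plain probe sets at 4.96 lay below the background level. Also not above it were Ikzf3, an Ikaros relative of later B cells (5.64 and 5.53), and Jchain, the joining chain of secreted antibodies (5.17 and 5.87).

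The wider list of Ikaros, zinc finger and other lymphoid regulators held 11 of 19 (57.9%) above background, against 45.0% of all genes. Those not above it included factors of later stages. Pax5, the B-cell commitment factor, read 5.13 and 5.34, Ebf1, which acts just before it, read 5.87 on both arrays, and Irf4, a plasma cell factor, read 5.11 and 5.48.

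Genes of committed lymphocytes were mostly not above background. Of 19 B-lineage genes 4 were above it (21.1%), against 45.0% of all genes, and the median of the list was 5.63. The 4 were Vpreb1, a surrogate light chain of the pre-B receptor (9.71 and 9.70), Cd79b, a signalling chain of the B-cell receptor (9.55 and 9.53), Ly6d, a mark of B-biased lymphoid progenitors (7.80 and 8.05), and Igll1, the other surrogate light chain (7.22 and 7.73). The Igll1 reading came from a probe set whose suffix marks possible hybridisation to other transcripts. Its other probe set read 4.98 and 4.94, below background. The lowest of the list were Pou2af1, a B-cell coactivator (4.09 and 3.87), and Bst1 (3.48 and 3.87). Without replicate 1, that is on replicate 2 alone with its background of 6.87, the count was 7, and it ranged from 2 to 9 over all settings.

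Of 18 T-lineage genes, 2 were above background (11.1%), against 45.0% of all genes, at a median of 5.32. They were Lat (9.25 and 9.24) and Zap70 (8.20 and 8.24), an adaptor and a kinase of antigen receptor signalling. Zap70 rested on 1 of its 3 probe sets, as the others had means of 5.42 and 5.49, below background. Cd7, an early T-lineage antigen, read 6.27 and 6.09, and the T-cell receptor chain Cd3g read 3.72 and 3.30. Of 14 NK-cell and innate lymphoid genes, 1 (7.14%) was above background on both arrays, against the same 45.0%. It was Nkg7, a membrane protein of cytotoxic granules, at 11.24 and 11.18. Klrd1, an NK receptor subunit, read 6.98 and 6.96, and the killer receptor Klrk1 (4.05 and 4.03) and granzyme A, Gzma (4.13 and 4.17), were near the reference median. Over the settings tried the T-lineage count ranged from 1 to 8 and the NK count from 1 to 5, with 2 on replicate 2 alone.

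Notch pathway genes, which direct progenitors to the T-cell fate, were above background in 9 of 18 cases (50%), near the 45.0% of all genes. Of the receptors, Notch2 read 12.65 and 12.29 and, like Notch1, lay in the top 10%, though both also had a dimmer probe set. Notch4 was not above background at 5.11 and 5.03. Mfng, a sugar transferase that tunes Notch ligand choice, read 12.22 and 12.23, and Rbpj, the DNA-binding factor of the pathway, read 10.81 and 10.64. Dll4, the Notch ligand of thymic epithelium, was not above background at 5.07 and 4.95.

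Myeloid regulators and receptors were above background in 13 of 15 cases (86.7%), against 45.0% of all genes, at a median of 8.53. Besides Myb, Irf8 and Gfi1, the list held Csf1r, the macrophage growth factor receptor, at 10.56 and 10.71, and Csf3r, the granulocyte growth factor receptor, at 8.56 and 9.16. Csf3r was 0.60 higher in replicate 2. Cebpa, the factor that starts granulocyte and monocyte differentiation, read 8.55 and 8.38. The interleukin-3 receptor chains Il3ra (6.39 and 6.64) and Csf2rb2 (6.50 and 6.08) were the 2 members not above background. The related receptor chain Csf2rb, also in the list, was therefore above it.

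Primary granule genes, which encode the enzymes that neutrophil precursors pack first, were bright in these lineage-negative cells. Of 10 measured, 8 (80%) were above background, against 45.0% of all genes, and 6 lay in the top 10%, at a median of 11.51. Prtn3, proteinase 3, read 12.63 and 12.59. Srgn, the proteoglycan that packs granules in many blood cells, read 12.43 and 12.47. Mpo, myeloperoxidase, read 11.79 and 12.30 and was 0.51 higher in replicate 2. Serpinb1a, an inhibitor of the granule proteases, read 12.08 and 11.82, and the protease Ctsg, named after its values were seen, 11.75 and 11.35. The group was not uniform, since Elane, neutrophil elastase, was not above background at 6.66 and 6.50, and Ms4a3, a mark of granulocyte-monocyte progenitors, was split at 7.46 and 6.69.

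The Mpo window (chr11:87793534-87793833, plus strand, GRCm38.p6, CpGs in capitals) is shown as an example of the CpG-poor promoters of this group.
Mpo: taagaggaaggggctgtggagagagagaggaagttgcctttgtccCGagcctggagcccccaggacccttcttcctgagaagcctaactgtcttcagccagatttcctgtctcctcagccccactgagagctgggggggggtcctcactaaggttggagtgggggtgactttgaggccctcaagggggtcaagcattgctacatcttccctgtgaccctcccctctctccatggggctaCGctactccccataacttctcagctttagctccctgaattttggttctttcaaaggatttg
It held 2 CpGs, an observed to expected ratio of 0.087.

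Secondary granule genes, which neutrophils switch on later, were mostly not above background. The count was 2 of 11 (18.2%), against 45.0% of all genes, at a median of 5.25. The 2 were Camp, an antimicrobial peptide, at 8.15 and 7.30, and Padi4, a histone-modifying enzyme of neutrophils, at 7.51 and 7.66. Chil3 (7.51 and 6.97) and Ngp (7.05 and 6.55) were split, and Lcn2 (4.34 and 4.14) and Cd177 (3.70 and 3.82) were not above it. Of the 11 genes 6 were higher in replicate 1, as were 48.8% of all genes, and 5 in replicate 2. The count above background ranged from 0 to 5 over the settings.

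Of 20 monocyte, macrophage and dendritic genes, 5 (25%) were above background, against 45.0% of all genes. They were Csf1r, Mpeg1, a pore-forming protein of phagocytes (11.14 and 10.81), the class II genes H2-Ab1 (10.94 on both arrays) and Cd74 (7.82 and 7.86), and Cd68, a lysosomal protein of macrophages (7.53 and 7.47), named after its values were seen. The other H2-Ab1 probe sets were dimmer, with means of 7.14 and 7.66. The mannose receptor Mrc1 (3.83 and 3.41) and the complement gene C1qb (4.52 and 4.24), both of mature macrophages, were not above background. Of 11 mast cell, basophil and eosinophil genes 2 (18.2%) were above it, the eosinophil granule gene Prg2 (8.30 and 7.99) and the basophil protease Mcpt8 (7.62 and 7.38). The IgE receptor gene Fcer1a read 3.49 and 3.46. The first of these counts ranged from 3 to 11 over the settings and the second from 0 to 4.

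Megakaryocyte and erythroid genes were mixed. Of 13 megakaryocyte genes, 6 (46.2%) were above background, a share near the 45.0% of all genes. They included Nfe2, a factor of platelet formation (10.67 and 10.93), Plek, a platelet signalling protein that other leukocytes also express (10.64 and 10.67), the integrin Itga2b (8.70 and 8.73) and the platelet chemokine Pf4 (8.61 and 8.22). The platelet products Ppbp (3.36 and 3.24) and Gp6 (4.44 and 4.23) were not above it.

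Of 19 erythroid genes, 7 (36.8%) were above background, against 45.0% of all genes, and 3 were split. The count ranged from 3 to 13 over the settings. Car2, a carbonic anhydrase, read 13.01 and 12.74, Tfrc, the transferrin receptor of dividing cells, 10.82 and 10.73, and Hemgn, an erythroid and progenitor nuclear protein, 10.59 and 10.01. Klf1, the erythroid factor, read 6.73 and 5.52, Epor, the erythropoietin receptor, 6.62 and 6.16, and the globin gene Hba-a1 4.06 and 4.09, all not above background. Car1, another carbonic anhydrase, read 8.57 and 7.18. In bulk arrays, fewer cells of a type and less RNA per cell cannot be told apart, which holds for every lineage list here.

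**Figure D3:**
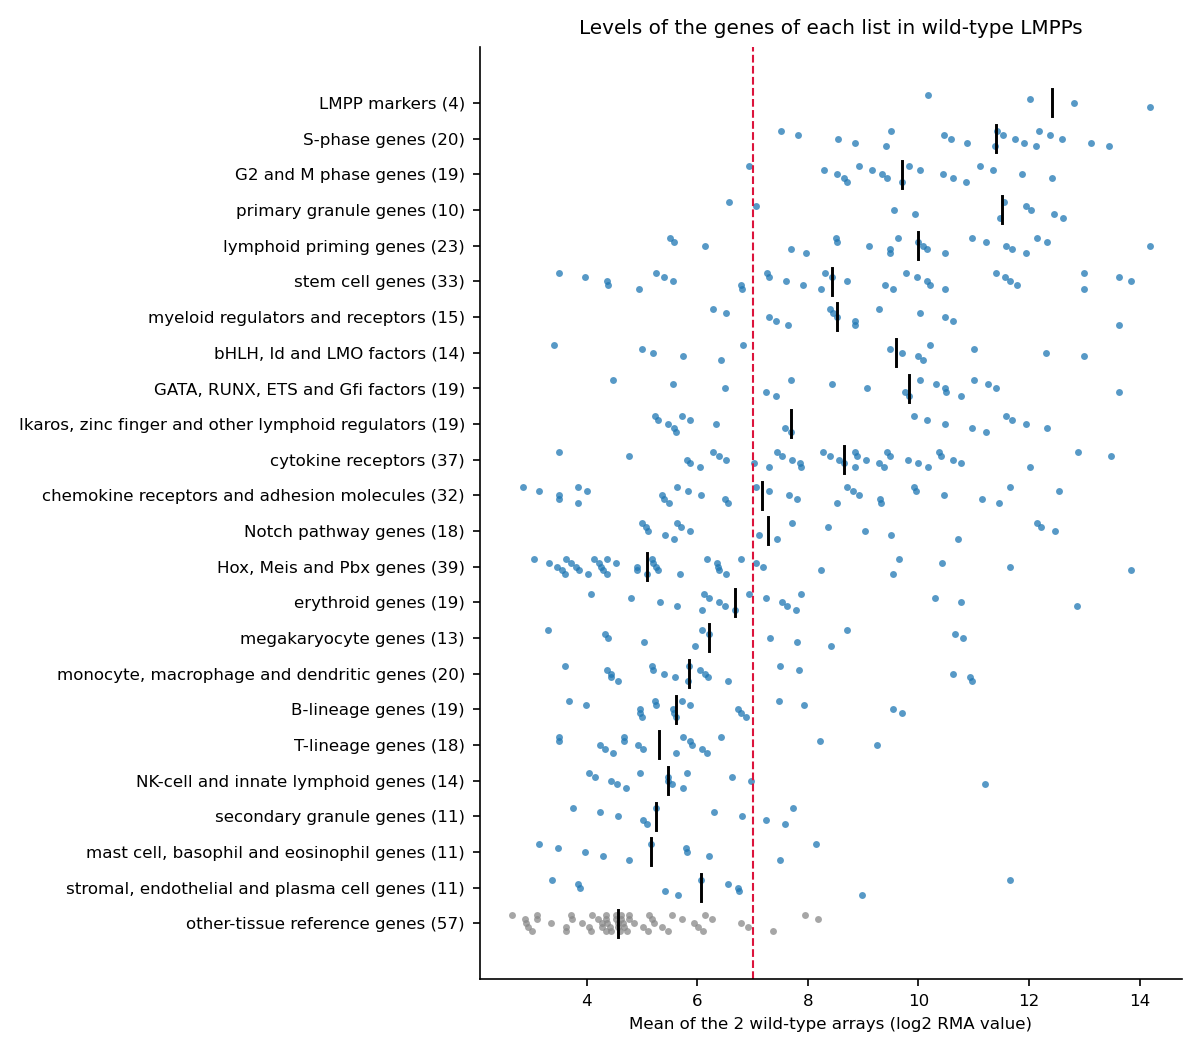
Mean of the 2 wild-type arrays (log2 RMA value) for every measured gene of each list, with the number of genes in brackets, the list median as a black bar and the background level of 7.01 as a dashed line. The medians of primary granule (11.51) and lymphoid priming genes (9.99) lie to the right of the line, and those of B-lineage (5.63), T-lineage (5.32) and secondary granule genes (5.25) lie between it and the median of the other-tissue reference genes (4.58).

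Cytokine receptors were above background in 28 of 37 cases (75.7%), against 45.0% of all genes, at a median of 8.65. Crlf2, a receptor chain for the cytokine TSLP, read 13.56 and 13.41, at the 99.3rd percentile. Il17ra, the interleukin-17 receptor, read 12.83 and 12.95, and Ifnar2, a chain of the type I interferon receptor, read 10.73 and 10.83. The lowest were Il5ra, the eosinophil and B-cell receptor for interleukin-5, at 4.50 and 5.02, and Tek.

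Chemokine receptors and adhesion molecules were above background in 16 of 32 cases (50%), near the 45.0% of all genes. Cxcr4, the receptor that holds progenitors in the marrow, read 11.64 and 11.67. Cd47, the signal that protects cells from phagocytosis, read 12.49 and 12.60, the hyaluronan receptor Cd44 11.35 and 11.55, and the selectin ligand Selplg 10.96 and 11.33. The eosinophil receptor Ccr3 (3.07 and 3.21) and the scavenging chemokine receptor Ackr3 (2.98 and 2.72) were among the dimmest of all genes.

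Cell cycle genes were read throughout. All 20 S-phase genes were above background, against 45.0% of all genes, at a median of 11.41. They included the replicative helicase subunits Mcm7 (13.38 and 13.53) and Mcm5 (12.58 and 12.62), the sliding clamp Pcna (13.26 and 13.00) and the nucleotide enzyme Dut (12.59 and 12.19). The lowest were Tyms, thymidylate synthase (7.79 and 7.25), and Ccne2, a cyclin of S-phase entry (7.82 on both arrays). Of 19 genes of the G2 and M phases 18 were above it, at a median of 9.70. They included Cdc20 (12.49 and 12.33), which triggers chromosome separation, Top2a (11.88 and 11.87), which untangles DNA, and the proliferation marker Mki67 (11.41 and 11.27). Bub1, a mitotic checkpoint kinase, was not above background, at 6.95 and 6.92.

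The CDK inhibitors, which brake the cycle, were above background in 4 of 7 cases (57.1%), against 45.0% of all genes. With the highest reference mean as background 2 were. Cdkn2c (p18) read 11.46 and 10.90, Cdkn1a (p21) 9.51 and 9.28, Cdkn2d (p19) 8.50 and 8.00, and Cdkn1b (p27) 8.16 and 7.95. Cdkn2a and Cdkn2b, the neighbouring genes linked to senescence, read 4.12 and 4.20, and 4.47 and 4.31, near the reference median.

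The brightest genes of all were largely of the ribosome. Among the 15 genes with the highest mean, from 14.6 to 15.1, were Rps18 (15.18 and 15.06), Rps7, Rps2, Rps3, Rps28, Rps29, Rps26, Rps14, Rpl22 and Rpl8. The others were the tubulin Tuba4a, the RNA-binding protein Pabpn1, the kinase inhibitor Pebp1, the mitochondrial protein C1qbp and the translation-linked Tpt1. Since probe sets differ, no weight is laid on their order. Of 11 housekeeping genes 10 were above background, against 45.0% of all genes. The elongation factor Eef1a1 read 14.54 and 14.65, and Tbp, the TATA-binding protein, was below background at 6.52 and 6.71.

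The 2 arrays agreed closely. Across the 18193 genes, which are not independent replicates, the arrays correlated with Pearson's r of 0.996 and Spearman's rho of 0.995. Both arrays carry the same probe sets, so differences between probe sets enter that correlation, and the differences per gene are the closer measure. Replicate 2 minus replicate 1 had a median of 0.004 and an SD of 0.25 over genes, its size was 0.14 at the median gene and 0.47 at the 95th percentile, and 74.3% of genes differed by at most 0.25. With genes split by level into 10 bins of equal size, the SD of 1 array ran from 0.13 in the lowest bin to 0.20 in the seventh.

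Of 8547 genes with at least 1 array above background, 39 (0.456%) differed at least 2-fold between the arrays. Replicate 1 was the higher for 31 of them (0.363%) and replicate 2 for 8 (0.0936%). Of the 39, 21 remained at least 2-fold apart with the mean of each gene's probe sets, and all 39 kept their sign. In that setting 22 genes passed the limit in all. Genes with 1 probe set, such as Fos and Fosb, read the same there, so their part of these counts was fixed in advance. With plain probe sets only, 37 of them were measured, of which 31 remained at least 2-fold apart and 34 kept their sign. Here too, genes already read from a plain probe set could not change. With the highest reference mean as background the count was 22. No test was made, since 2 arrays of 1 group offer none.

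The difference of greatest size was that of Igha, the heavy chain of IgA antibodies made by plasma cells. It read 5.45 in replicate 1 and 10.44 in replicate 2, or 31.8-fold apart, and its 3 probe sets were each higher in replicate 2. The type I collagen genes Col1a1 (5.23 and 7.90, 6.40-fold) and Col1a2 (5.50 and 7.97, 5.53-fold), products of bone-forming and other stromal cells, were split in the same direction. For Col1a1 the other probe set was dim on both arrays, at 4.16 and 4.38, while a second Col1a2 probe set read 3.68 and 5.99. Higher in replicate 2 by about 1 unit were Ddit4, a stress-induced inhibitor of growth signalling (9.54 and 10.62), Mid1 (9.75 and 10.81), Eml2 (7.60 and 8.66) and Gigyf1 (9.25 and 10.26).

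Markers of plasma cells, stroma and endothelium were checked as a whole list beside these genes. Of 11 measured, 2 were above background, against 45.0% of all genes, while 2 were split and 7 were not above. Pdgfrb, a growth factor receptor of stromal cells, read 11.61 and 11.69 on 1 probe set. Its other probe set read 7.04 and 7.48, close to the background level. Sdc1, a plasma cell surface protein, read 8.98 in replicate 1 and within 0.02 of that in replicate 2. The collagen Col3a1 (3.19 and 3.57) and the plasma cell factor Prdm1 (3.87 and 3.84) were near or under the reference median. Kdr, a receptor of endothelial cells, read 6.84 and 6.66. Without replicate 1 the count was 4, as the type I collagens then counted. Whether other cells in the sort contributed to the array differences was not tested.

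In the other direction, several erythroid genes were lower in replicate 2. Slc4a1, the anion exchanger of the red cell membrane, read 7.91 and 5.48, or 5.40-fold apart. Over the 19 erythroid genes the median of replicate 2 minus replicate 1 was −0.59, with 17 higher in replicate 1, against 48.8% of all genes. Of the list 6, including Car1 and, below background on both arrays, Klf1 and Rhag, were at least 2-fold apart. The median lay between −0.59 and −0.52 under the other scalings and probe set choices. The globin gene Hba-a1, read from 1 probe set, was nearly equal at 4.06 and 4.09. Like Klf1 and Rhag, it was not above background on either array. Such dim readings are weak evidence of direction, and the count of 17 and the median include 9 genes not above background. The part of red cell precursors in the difference was not tested.

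Immediate-early genes, which cells induce within minutes of stimulation or handling, were also unequal. Fos read 12.58 and 10.86, or 3.27-fold apart, and its relative Fosb read 7.80 and 5.36, or 5.44-fold apart. Sik1, a kinase induced by similar signals, read 9.06 and 7.57, and Egr1, named after its values were seen, 10.10 and 8.70. The other Sik1 probe set was below background and nearly equal, at 5.79 and 5.78. Jun read 10.07 and 9.67, and its other probe set 9.99 and 8.94. Ier3 (10.90 and 10.85) and Ier2 (10.81 and 10.70) differed less than the median gene, and Atf3 (3.28 and 3.31) and Egr2 (4.03 and 3.88) were not above background. Of 18 genes in the list, 13 were higher in replicate 1, against 48.8% of all genes, with a median difference of −0.13. At least 2-fold apart were 5 of them, against 0.291% of all genes.

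Smaller but uniform was the difference of the mitotic list, where each of 19 genes was higher in replicate 1, against 48.8% of all genes. The median was −0.25 and the largest size 0.54. Lymphoid priming genes had a median difference of 0.07 and primary granule genes one of −0.10. None of either list was 2-fold apart, but only 0.291% of all genes were, so this does not set these lists apart. Among the remaining genes higher in replicate 1 were Aldh1a7 (7.29 and 5.39), the collagen Col5a1 (7.13 and 5.44), the iron exporter Slc40a1 (7.50 and 5.81), the sphingosine kinase Sphk1 (8.02 and 6.34), Cldn13 (9.03 and 7.37) and the nuclear lamin Lmna (7.86 and 6.22). The next brightest probe sets did not share a 2-fold difference and were below background. They read 6.47 and 6.05 for Col5a1, 4.75 and 4.79 for Slc40a1, 4.23 and 4.34 for Sphk1, and 6.18 and 6.53 for Lmna. Aldh1a7 and Cldn13 had 1 probe set each.

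**Figure D4:**
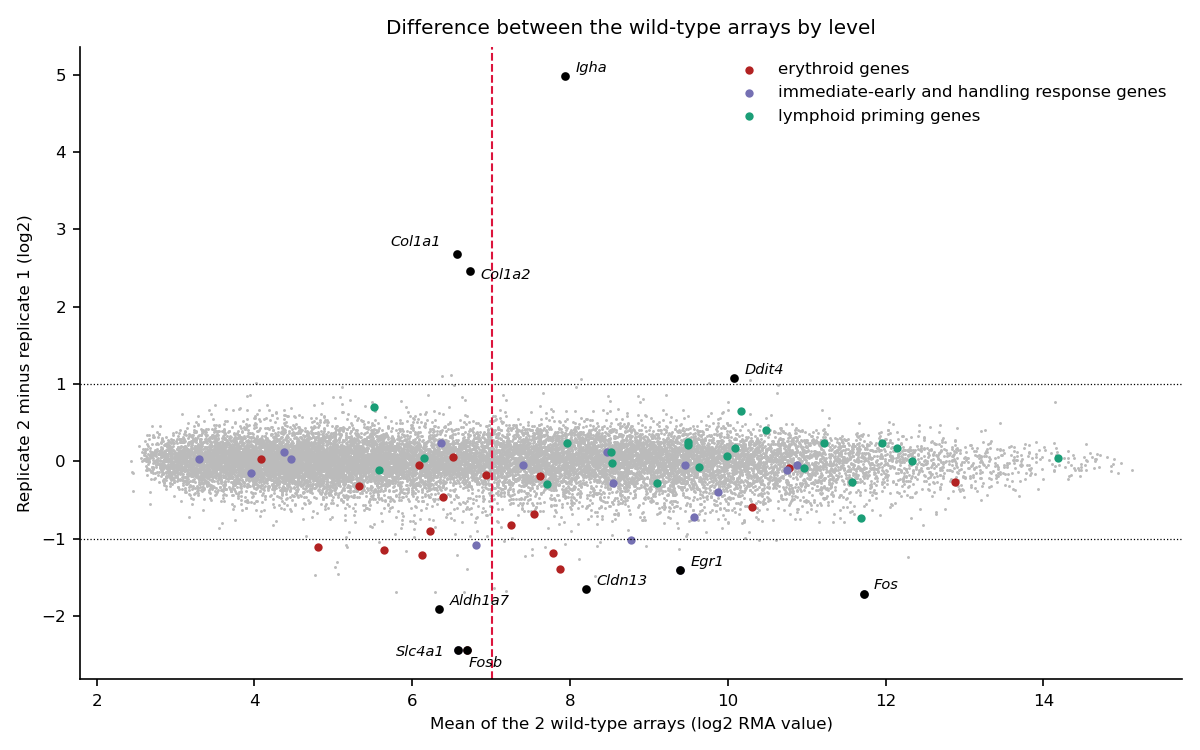
Difference between the wild-type arrays (replicate 2 minus replicate 1, log2) against their mean (log2 RMA value) for all 18193 genes in grey, with erythroid, immediate-early and lymphoid priming genes in colour, the 2-fold limits dotted and the background level of 7.01 dashed. Igha stands at 4.99, Fosb and Slc4a1 at −2.44 and −2.43, and lymphoid priming genes stay within the 2-fold limits, as do all but 0.291% of genes.

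Of 4 sex-linked genes measured, 1 was above background, against 45.0% of all genes. It was Eif2s3y, on 1 of its 2 probe sets, and the other read 3.37 and 3.34, below background. The Y-linked Eif2s3y read 10.15 and 10.12, Kdm5d 6.15 and 6.22 and Uty 4.27 and 4.34, while Xist, the RNA of the inactive X chromosome, read 6.30 and 5.81. The arrays did not differ in these transcripts by more than 0.49.

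Promoter windows were finally set against the levels, over protein-coding genes. A RefSeq window was at hand for 13272 of 16470 such genes, or 80.6%. Of the genes above background, 82.9% had one, and 79.0% of those windows had an observed to expected CpG ratio of at least 0.6. That compares with 59.2% over all coding genes measured and 36.5% of the 27025 windows in the table. Over the 10 bins of level the share was 59.1% in the fifth, 74.9% in the sixth, 75.3% in the seventh, 79.8% in the eighth, 82.2% in the ninth and 81.0% in the highest. In the lowest 4 bins, and for the genes not above background as a whole, under 80% of genes had a window, so the comparison is void there.

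The lists divided by promoter type as well as by level. Of the windows of primary granule genes, among them the dim Elane, 0 of 9 were CpG-rich. The same held for 0 of 10 of secondary granule genes and 0 of 9 of mast cell, basophil and eosinophil genes. By contrast, 15 of 16 G2 and M phase genes, 13 of 17 S-phase genes and 9 of 9 housekeeping genes were CpG-rich. Between them lay the lymphoid priming genes with 8 of 19, while 11 of 16 were CpG-rich among the Ikaros list and 11 of 16 among GATA, RUNX, ETS and Gfi factors. Of the other-tissue reference genes 2 of 47 were. Under 80% of the stem cell, Hox, B-lineage, T-lineage, NK-cell, myeloid regulator, monocyte, megakaryocyte, erythroid, receptor, adhesion, Notch and bHLH genes had a window, so the check is void for those lists.

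The letters TATAAA stood between 40 and 15 bases before the start, on the strand of the gene, in 2.22% of all windows, 2.56% of coding genes measured and 0.827% of those above background. On either strand and at any place they stood in 14.2% of all windows of this length. In the upstream place they were found in 3 of 10 secondary granule genes and 9 of 47 reference genes, and in 0 of 9 primary granule genes. A match is a description of the letters only.

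**Figure D5:**
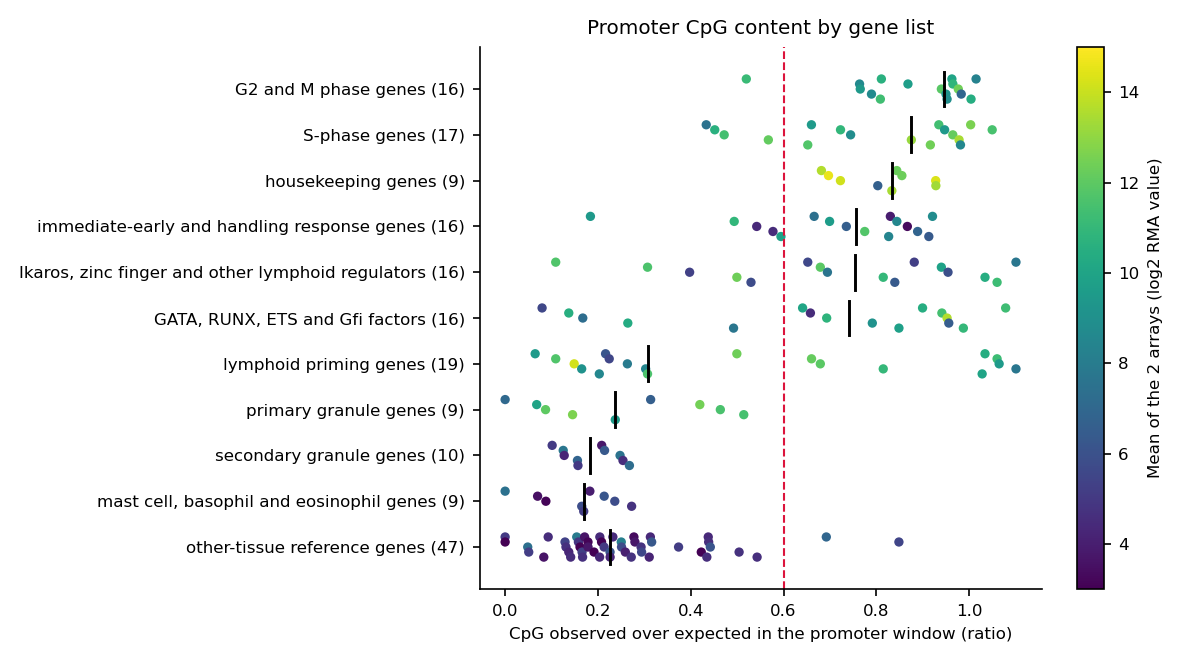
Ratio of observed to expected CpGs in the promoter window of each gene, for the lists in which at least 80% of genes had a window (number of windows in brackets), coloured by the mean of the 2 wild-type arrays (log2 RMA value), with list medians as black bars and the limit of 0.6 dashed. Primary granule genes all have ratios under 0.6, with mean readings from 12.61 for Prtn3 down to 6.58 for Elane, and G2 and M phase genes lie above 0.6 in 15 of 16 cases.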

How the data were processed

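The files hold log2 expression values that the authors computed by RMA, as the submitters' processing notes record. RMA removes background, gives the arrays 1 common distribution and combines probes into probe sets. The RMA version and the set of arrays it was run on are not stated there. A common distribution hides any change of total RNA. The medians of the wild-type columns were 5.65 and 5.65, and the values were used as deposited. Array number limits the precision.

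Of 45037 probe sets, 34945 were listed with 1 gene in the platform annotation, 932 with several and 9160 with none. The identifiers of 34741 matched RefSeq genes (GRCm38.p6), which changed 0 symbols. Each gene was read from its probe set with the highest mean of both columns. Background was the 95th percentile of reference genes. The counting code was tested on simulated data. Members and lists were chosen with earlier results of these data known. The genes named were the markers, a fixed set of regulators, the 4 highest and 2 lowest of each list, the 15 highest overall and the 10 largest differences each way, without clones and predicted genes. Alternatives varied the probe set, the background, the scaling and the arrays. No test was run. Python 3.11.15, pandas 2.3.3 and numpy 2.4.6 were used.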

Additional observations from a re-analysis of the deposited data

How the results depend on the processing

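Over the 9 alternatives, the count of genes above background ranged from 5918 to 10886 (32.5% to 59.8% of genes), within 1.5 times of 8193; it was 8639 without replicate 1 and 8119 without replicate 2. The SD of the difference between arrays ranged from 0.23 to 0.27. Of 261 recomputed list counts, 34 moved by over 1.5 times and none of them under quantile normalization, median centring or without replicate 2. With the background at the 90th percentile of the reference genes, 2 lineage antigens, 7 B-lineage, 3 NK-cell, 4 secondary granule and 13 Hox, Meis and Pbx genes were above it. With the highest reference mean as background, 2 B-lineage, 0 secondary granule, 3 monocyte, 0 mast cell, 3 erythroid, 5 Hox genes and 2 CDK inhibitors were, and 22 genes were at least 2-fold apart, 17 of them higher in replicate 1. With the median of all probe sets, the counts were 4 lineage antigens, 9 B-lineage, 8 T-lineage, 5 NK-cell, 5 secondary granule, 11 monocyte, 4 mast cell, 13 erythroid, 4 stromal, 14 Hox and 3 sex-linked genes. With the mean of each gene's probe sets, 1 T-lineage, 3 NK-cell and 4 secondary granule genes were above it, and 22 genes were at least 2-fold apart, again with 17 higher in replicate 1. With plain probe sets only, the counts were 2 lineage antigens, 3 NK-cell, 4 secondary granule, 11 erythroid and 2 sex-linked genes. Leaving out each array in turn gave 4 to 7 B-lineage, 1 to 2 NK-cell and 2 to 4 stromal genes. These shifts follow from the construction of the settings, which move the background or the probe set read; other causes were not tested. Of the levels recomputed for 41 single genes, 20 moved by more than the spread between arrays with the mean of the probe sets, such as Kit at 7.48, Ikzf1 at 8.37 and Meis1 at 9.30. With plain probe sets Dntt read 9.67 and Ccr9 4.96. All 12 recomputed median differences between the arrays kept their sign. Readings near 7.01 cannot be told from the reference genes, and with 2 arrays no SD is precise. No paired analysis was possible because the arrays form 1 group and the results come from no test.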

Other observations

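Further genes of antibody-producing cells, of bone and matrix and of marrow macrophages were read beside the array differences, in lists chosen after the values were seen. Ighm, the heavy chain of IgM, read 11.76 and 12.00 on the brightest of its 11 probe sets, 10.81 and 11.19 on the next, and 4.24 and 4.18 on the dimmest. Xbp1, a factor of secretory cells, read 10.54 and 10.83, and Txndc5, a folding enzyme, 8.75 and 8.96. Of 12 such immunoglobulin and plasma cell genes 5 were above background, against 45.0% of all genes. In replicate 2, 10 were higher, as were 9201 of all 18193 genes, with a median difference of 0.22. The list was drawn up after the reading of Igha was known, so its direction is not independent of it. The plasma cell receptor Tnfrsf17 (4.39 and 4.12) was not above it and was higher in replicate 1.

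Of 15 bone and matrix genes 0 were above background on both arrays, against 45.0% of all genes. In replicate 2, 10 were higher, as were 9201 of all 18193 genes, with a median difference of 0.06. Beside the type I collagens the osteoblast factor Sp7 (6.51 and 6.64) and the matrix gene Ibsp (3.69 and 3.74) were nearly equal on the arrays. Of 17 marrow macrophage genes 10 were higher in replicate 1, a share not far from the 48.8% of all genes, at a median of −0.17. Cd5l, a secreted macrophage protein, read 7.40 and 6.00 and the Fc receptor Fcgr3 8.13 and 6.91, while the scavenger receptor Cd163 read 7.33 on both arrays. The part of such cells in the differences was not tested.

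Probe sets that name no single gene also carried signal. Of 9160 without a listed gene, 1550 (16.9%) were above the background level on both arrays, against 35.8% of those with 1 gene and 46.5% of the 932 with several.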
